A study of Mus musculus with 9 samples.

Results

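The KLF transcription factors described here are 10 genes of the Krüppel-like family, Klf2, Klf3, Klf4, Klf6, Klf7, Klf9, Klf10, Klf11, Klf12 and Klf13, found by their symbols in the GENCODE M21 annotation among the 51912 genes of the deposited count table. All were measured by bulk sequencing of total RNA in 9 samples of pre-cDCs, the committed precursors of conventional dendritic cells (cDCs). The cells were sorted from mixed bone marrow (BM) chimeras, lethally irradiated CD45.1/CD45.2 C57BL/6 recipients that had been given equal parts of wild-type (WT) and DNGR-1 KO (KO below) marrow, and each sample was pooled from 2 mice 16 weeks after transplantation. WT BM and DNGR-1 KO BM pre-cDCs had 3 samples each, the WT spleen had 1 sample, and the DNGR-1 KO spleen had 2. WT cells were CD45.1 according to the study and one field of their labels, whereas another field names CD45.2. DNGR-1 KO cells were CD45.2 and carried Clec9a Cre/Cre, in which Cre disrupts the gene for DNGR-1, so genotype, Cre and donor strain cannot be told apart. No sample received a treatment. Spleens were digested with enzymes at 37 °C before sorting whereas BM was flushed from the bones, so tissue and preparation cannot be told apart either. Splenic cDC1s were not analysed here.

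KLFs bind GC-rich and CACCC elements in DNA through a conserved group of zinc fingers at the C terminus, and their N-terminal parts decide whether a target gene is activated or repressed. KLF2, KLF4, KLF6 and KLF7 act mainly as activators. KLF3 and KLF12 recruit the corepressor CtBP, and KLF9, KLF10, KLF11 and KLF13 recruit SIN3A and histone deacetylases. In leukocytes the family is known for control of quiescence, of exit from and homing to tissues, and of monocyte and macrophage differentiation.

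The total count per sample was 17103806 to 23722298, so that 3 counts correspond to 0.126 to 0.175 CPM (counts scaled by the library total), a limit that covers counting error only. Clec9a followed the labels, with 905 to 1766 counts in WT and 1 in each KO sample of the BM, and with 2459 counts in WT and 0 in KO spleen. The WT spleen sample stood apart in that 10813 genes had more than 3 counts there, compared with 12064 to 15052 in the other 8 samples. Among the 8389 genes that reached 100 counts in both KO spleen libraries, 509 (6.07%) did not exceed 3 counts in the WT spleen library, and the corresponding shares were 1.92% and 1.82% for KO spleen samples 1 and 2. Results that rest on this sample are therefore given with and without it. The spleen samples also held transcripts of cells that the lineage cocktail of the sort should have removed. The 9 T cell markers summed to 1154 CPM in the WT spleen sample and to 1572 and 4347 CPM in the KO spleen samples, compared with 1.08 to 10.8 CPM in BM, and Cd4 was at 0 to 1.12 CPM in spleen. The 6 NK cell markers summed to 266 to 1437 CPM in spleen and to 14.1 to 41.8 CPM in BM. Most of this was Nkg7, at 222 to 1046 CPM in spleen. Prf1 was at 13.6 to 153, Gzma at 7.68 to 164 and Eomes at 13.2 to 62.6 CPM in spleen. Ncr1 and Klrb1c were at 0 CPM in the WT spleen sample. In KO spleen samples 1 and 2 Ncr1 was at 15.8 and 10.7 CPM and Klrb1c at 14.9 and 0 CPM. The 5 erythroid markers, led by the hemoglobin genes Hba-a1 and Hbb-bs, summed to 5119 to 30815 CPM in spleen and to 73.9 to 280 CPM in BM. Most pre-cDC markers were present in both tissues: 8 of the 9 had more than 3 counts in every BM sample and 8 in every spleen sample, the exception being Clec9a in KO cells. The 5 B cell markers summed to 34.7 to 47.0 CPM in spleen and 37.3 to 58.5 CPM in BM. Most of this was Cd79b, at 25.3 to 37.2 CPM in spleen, while Ms4a1 was at 0 CPM in the WT spleen sample and at 12.0 and 9.40 CPM in KO spleen, and Pax5 had at most 3 counts in every spleen sample.

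Among the 10 genes, most mRNA in the pre-cDC samples came from 4. Klf1, which is not among the 10, was at 138 to 337 CPM in WT BM and at 11.4 to 172 CPM in KO BM. It is left out of the shares and ranks below, which cover the 10 genes only. On the TPM scale, in which counts are divided by exon length and scaled to a fixed total so that genes can be compared, Klf13, Klf6, Klf4 and Klf10 together made up 89.3% to 92.3% of the family's TPM in the BM samples and 80.8% to 87.5% in the spleen samples. The summed level of all 10 genes was 290 to 469 TPM in BM and 316 to 508 TPM in spleen, ranges that overlapped. Klf13 was the highest of the 10 in BM at 97.1 ± 17.98 TPM (SD, n = 6), followed by Klf4 at 90.5 ± 19.2, Klf6 at 84.1 ± 16.1 and Klf10 at 57.8 ± 23.6 TPM. A second tier held Klf11 at 14.4 ± 5.24, Klf2 at 7.29 ± 2.53 and Klf3 at 6.76 ± 2.57 TPM. Klf7 followed at 2.44 ± 0.59 TPM, Klf9 at 1.33 ± 0.95 TPM, and Klf12 was barely detected at 0.11 ± 0.15 TPM. Neighbours in this order overlapped across the BM samples except for Klf3 and Klf7. Within samples, Klf6 exceeded Klf10, Klf10 exceeded Klf11, Klf11 exceeded Klf2, and Klf3 exceeded Klf7 in 6 of 6. Klf4 exceeded Klf6 and Klf7 exceeded Klf9 in 5 of 6, whereas Klf13 exceeded Klf4 in 3 samples and Klf2 exceeded Klf3 in 3. In spleen Klf6 came first at 105 ± 18.9 TPM (n = 3), then Klf13 at 103 ± 54.4, Klf10 at 86.2 ± 31.3, Klf4 at 70.4 ± 25.5 and Klf2 at 37.8 ± 18.9 TPM, and every pair of neighbours overlapped. Klf2 made up 1.15% to 3.16% of the family's TPM in the BM samples and 5.95% to 11.1% in the spleen samples.

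**Figure D1:**
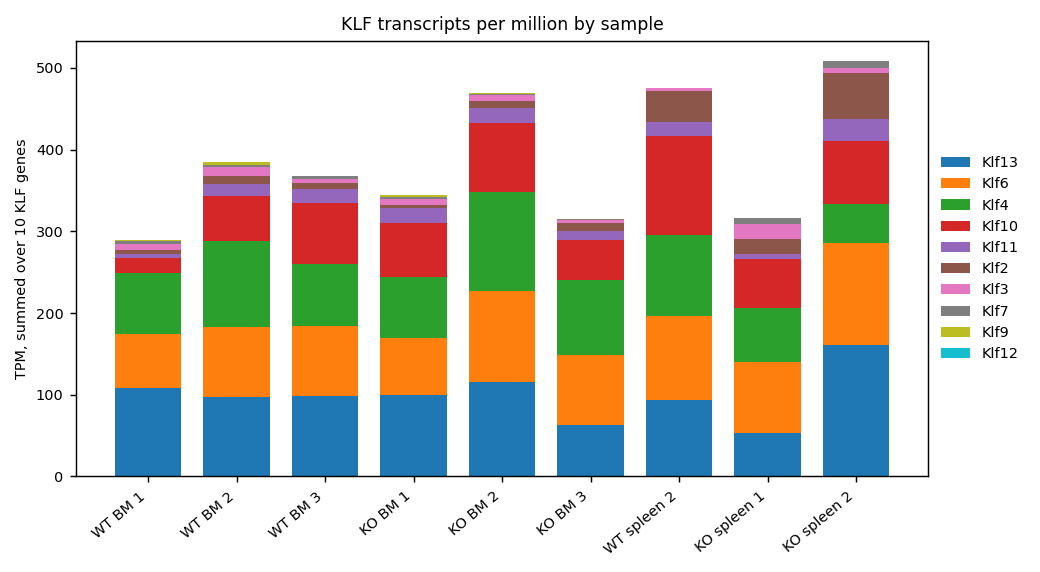
TPM of the 10 KLF genes (vertical axis, stacked) in each of the 9 samples (horizontal axis). Klf13, Klf6, Klf4 and Klf10 fill 80.8% to 92.3% of every bar, and the segment of Klf2 is wider in the 3 spleen bars, at 18.8 to 56.5 TPM, than in the 6 BM bars, at 3.95 to 10.2 TPM.

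The promoters shown first are those of Klf2 and Klf9, because these were the members that passed the test between tissues. Both sequences are from RefSeq on GRCm38.p6, run 5′ to 3′ on the strand of the gene, and cover 250 bases before and 50 after the gene's start. Capitals mark matches, on either strand, to CACCC, the element that KLFs themselves bind, GGGCGG, the GC box of SP and KLF factors, TGACGTCA, the cyclic AMP response element, and GTAAACA, a forkhead motif that FOXO factors bind. The first lies on the plus strand of chromosome 8 (chr8:72318812-72319111) and the second on the plus strand of chromosome 19 (chr19:23140976-23141275).
Klf2: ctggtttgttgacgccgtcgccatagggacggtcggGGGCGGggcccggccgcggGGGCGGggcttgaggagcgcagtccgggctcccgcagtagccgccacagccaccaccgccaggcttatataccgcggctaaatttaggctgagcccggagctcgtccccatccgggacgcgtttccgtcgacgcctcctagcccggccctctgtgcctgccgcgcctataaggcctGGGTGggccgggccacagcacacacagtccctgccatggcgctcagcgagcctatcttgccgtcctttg
Klf9: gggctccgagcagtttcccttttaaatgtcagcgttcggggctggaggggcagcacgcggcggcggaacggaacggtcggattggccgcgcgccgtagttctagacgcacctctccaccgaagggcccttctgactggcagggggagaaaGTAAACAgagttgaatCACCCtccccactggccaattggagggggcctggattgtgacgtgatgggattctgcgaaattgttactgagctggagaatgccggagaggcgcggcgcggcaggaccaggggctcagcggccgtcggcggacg
The Klf2 window held 2 GC boxes and 1 CACCC element, and the Klf9 window held 1 CACCC element and 1 forkhead motif but no GC box. Among all 32851 promoters of the same length, 57.5% held CACCC, 35.7% GGGCGG, 1.79% TGACGTCA and 3.65% GTAAACA. A promoter was found for 9 of the 10 members, all but Klf10, and of these 6 held CACCC, 7 held GGGCGG, 0 held TGACGTCA and 1, that of Klf9, held GTAAACA. The 5-letter and 6-letter matches were thus common in any promoter, and none of the matches was tested for binding here.

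The first question was whether any KLF gene differed between KO and WT pre-cDCs of the BM. None did beyond the spread between samples. Klf12 did not pass the filter on low counts, and of the 9 members tested, 0 passed at an adjusted p of 0.05, where 0.0307% of all 13016 genes did (edgeR's quasi-likelihood test with Benjamini-Hochberg adjustment). The adjusted p-values of the members were 0.861 to 0.993, and 0 members were under 0.05 before adjustment. DESeq2 and limma-voom also called 0 members. The samples of both genotypes overlapped for every member tested, where 9.56% of all genes did not overlap. The median log2 difference (KO minus WT) over the 9 members was -0.02, beside -0.0045 over all genes.

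**Figure D2:**
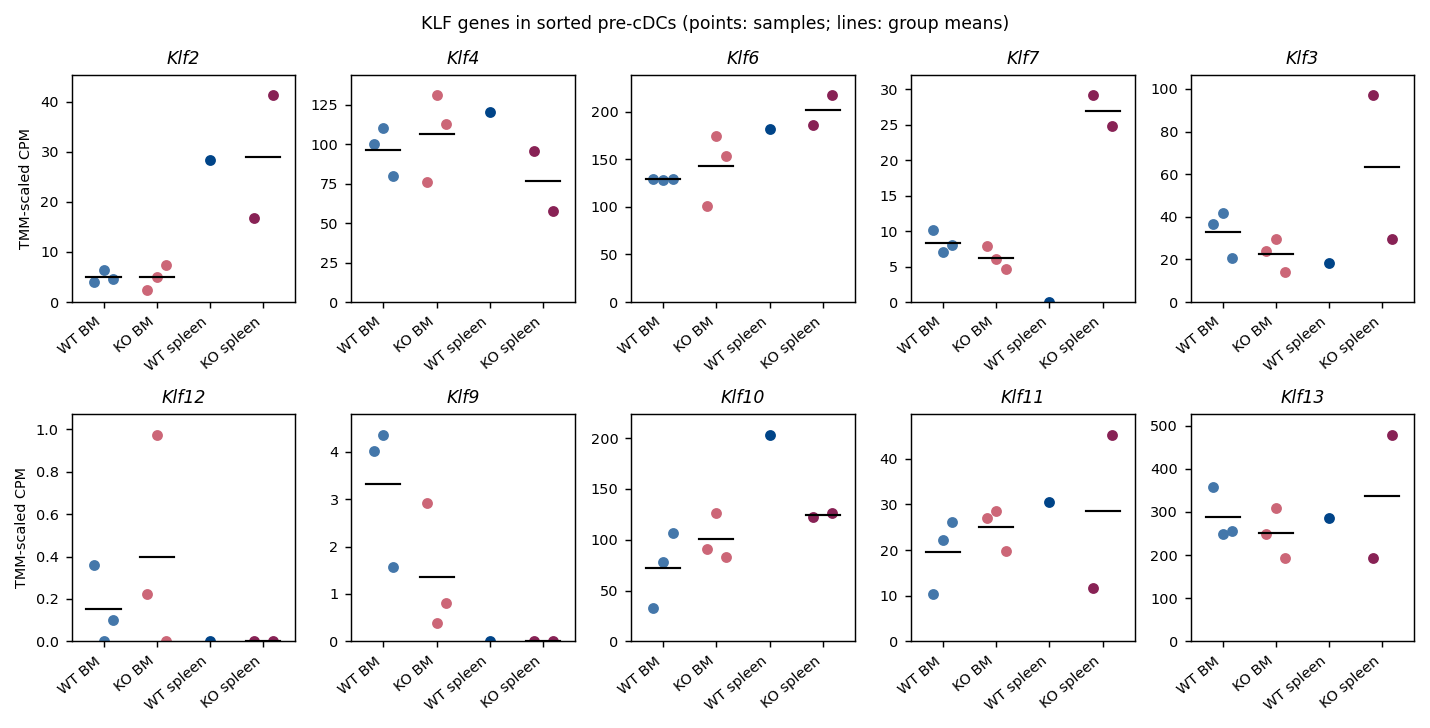
Level of each KLF gene in CPM scaled by the TMM method (vertical axis, from 0, with its own range for each gene) in the 4 groups (horizontal axis). Points are samples and horizontal lines are means of groups with more than 1 sample. WT and KO BM points overlap in every panel, all 3 spleen points of Klf2 lie above all 6 BM points, and those of Klf9 lie at 0.

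Among the activators, Klf4, which drives differentiation of monocytes and of part of the cDC2 lineage, had a level of 96.6 ± 15.5 CPM (SD, n = 3) in WT BM and 107 ± 28.0 CPM (n = 3) in KO BM. CPM values, scaled by edgeR's TMM method as above, compare samples for 1 gene, not genes with each other. Its log2 difference was 0.14 with a 95% interval of -0.44 to 0.73, so a change of 2-fold in either direction lay outside the interval. Klf6, which is induced by injury and inflammatory signals, was at 129 ± 0.39 CPM in WT BM and 143 ± 38.0 CPM in KO BM, with an interval of -0.41 to 0.69. The 3 WT BM samples thus lay within 1 CPM of each other, while the KO BM samples ran from 100 to 174 CPM around them. Klf2, which maintains quiescence and expression of S1pr1 in lymphocytes, was at 5.01 ± 1.26 CPM in WT BM and 4.94 ± 2.53 CPM in KO BM. Its interval of -1.11 to 1.06 did not exclude a change of up to 2-fold, and its counts were 54 to 149 per BM sample. Klf7 was at 8.37 ± 1.59 and 6.19 ± 1.59 CPM in WT and KO BM, with a log2 difference of -0.44 and an interval of -1.24 to 0.37.

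Of the CtBP-binding repressors, Klf3, which has roles in B cell and erythroid development, was at 36.5, 41.7 and 20.8 CPM in the WT BM samples and at 23.9, 29.6 and 14.1 CPM in the KO BM samples. The samples overlapped, and the log2 difference of -0.55 had an interval of -1.34 to 0.24. Klf12 had 6, 0 and 2 counts in WT BM and 5, 20 and 0 in KO BM, and 0 in all 3 spleen samples, at or close to the limit of detection.

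The SIN3A-binding repressors included the gene with the widest genotype difference in BM. Klf9, a target of glucocorticoid and thyroid hormone receptors, had 67, 84 and 31 counts in WT BM and 65, 8 and 16 in KO BM. In CPM this was 4.01, 4.36 and 1.58 against 2.91, 0.39 and 0.80. The KO BM samples numbered 2 and 3 were low, whereas sample 1 lay among the WT samples, and the log2 difference of -1.27 (95% interval -3.04 to 0.49, unadjusted p = 0.139, adjusted p = 0.861 by edgeR) did not pass. Some erythroid genes were low in the same samples. Klf1, the erythroid Krüppel-like factor, was at 337, 216 and 138 CPM in WT BM and at 172, 11.4 and 41.8 CPM in KO BM. Epor, the erythropoietin receptor, was at 80.2, 49.5 and 41.1 CPM in WT BM and at 49.0, 3.02 and 18.1 CPM in KO BM. The KO BM samples 2 and 3 thus had the lowest levels of all 3 genes among the BM samples. The hemoglobin genes did not share this profile: Hba-a1 was at 86.6, 11.7 and 29.4 CPM in WT BM and at 66.4, 31.8 and 86.6 CPM in KO BM, and Hbb-bs was the highest in KO BM sample 3, at 95.3 CPM. The part of erythroid transcripts in the level of Klf9 was not tested. In bulk samples, fewer cells of a type and less RNA per cell cannot be told apart.

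Klf10 and Klf11, both first described as early genes induced by TGF-beta, shared a low sample in BM. Klf10 was at 32.5, 78.5 and 107 CPM in WT BM and at 91.2, 127 and 83.1 CPM in KO BM. Klf11 was at 10.4, 22.2 and 26.2 CPM in WT BM and at 27.1, 28.6 and 19.8 CPM in KO BM. WT BM sample 1 was the lowest of the 6 for both genes. It was also the lowest for 5 of the 9 pre-cDC markers and the highest for 1 of them, Spn, with Csf1r at 160 CPM against 332 to 707 CPM and Itgax at 75.03 CPM against 208 to 337 CPM in the other BM samples, and the part of this sample's makeup in the result was not tested. The log2 differences between genotypes were 0.47 (95% interval -0.40 to 1.33) for Klf10 and 0.36 (-0.43 to 1.15) for Klf11. Without WT BM sample 1 they were 0.12 and 0.06. Klf13, which promotes expression of Ccl5 in T cells, was at 288 ± 61.1 CPM in WT BM and 251 ± 58.0 CPM in KO BM, with an interval of -0.77 to 0.36.

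The second question was how the family differed between pre-cDCs of the spleen and of the BM. In the fit of all 9 samples, adjusted for genotype, Klf2 was higher in spleen and Klf9 was lower. So 1 of the 9 members tested was called higher, where 7.28% of the 13468 genes tested were, and 1 was called lower, where 12.3% were (edgeR's quasi-likelihood test, adjusted by Benjamini-Hochberg). These shares of 9 genes lie close to the background, and the other 7 tested members did not pass. Klf9, at 0 counts in every spleen sample, entered the test only through its BM samples. Between spleen and BM, 2 members, Klf2 and Klf6, had all spleen samples above all BM samples, where 9.11% of the genes tested had, and Klf9 had all spleen samples below, where 17.4% had. Scaled by the total count in place of TMM, the first number was 1, as Klf6 then overlapped. The median log2 difference (spleen minus BM) was 0.50 over the 9 members and -0.18 over all genes.

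**Figure D3:**
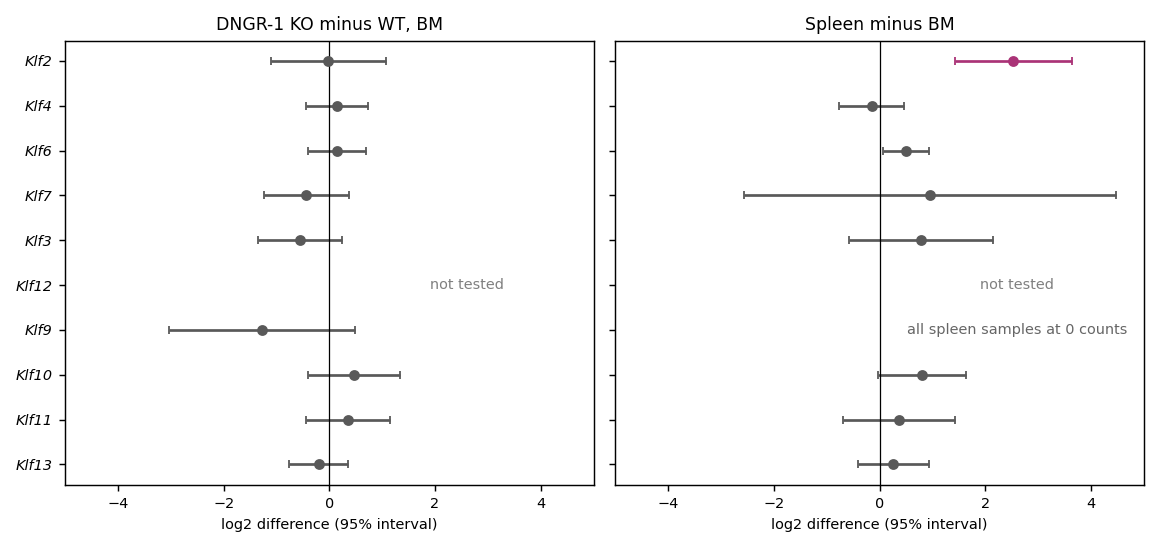
Log2 difference of each KLF gene (points) with its 95% interval (bars) between KO and WT BM samples (left) and between spleen and BM samples (right), from edgeR's quasi-likelihood test. Intervals on the left all include 0, Klf2 (coloured) is the member called higher in spleen at 2.54, Klf12 was not tested, and Klf9 is not drawn on the right because all spleen samples were at 0 counts.

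Klf2 (ENSMUSG00000055148, plus strand of chromosome 8, 72319033 to 72321656 on GRCm38) was the member called higher in spleen. Its level was 4.07, 6.44 and 4.53 CPM in WT BM and 2.42, 4.93 and 7.47 CPM in KO BM, against 28.3 CPM in the WT spleen sample and 16.8 and 41.3 CPM in the KO spleen samples. All 3 spleen samples lay above all 6 BM samples, and within spleen the WT sample lay between the KO samples. The difference was 5.80-fold, a log2 difference of 2.54 (SE 0.49, 95% interval 1.43 to 3.64, adjusted p = 0.00709 by edgeR). Leaving out any sample gave log2 differences of 2.15 to 2.81 with adjusted p-values of 0.00467 to 0.0268, whereas the KO samples alone, 3 from BM and 2 from spleen, gave 2.55 with an adjusted p of 0.0702 and so no call. On the TPM scale Klf2 was at 7.29 TPM in BM and 37.8 TPM in spleen, which moved it up by 1 place in the order of the family.

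Cells of other types that express Klf2 had left transcripts in the same samples. The KO spleen sample 2 had the highest level of Klf2 and the highest summed T cell markers, at 4347 CPM, but the KO spleen sample 1 had less Klf2 than the WT spleen sample with more T cell markers, at 1572 against 1154 CPM. S1pr1, the receptor for lymphocyte exit that KLF2 activates in T cells, was at 37.2, 83.4 and 292 CPM in the WT and the KO spleen samples 1 and 2, against 0 to 3.49 CPM in BM. In these single samples S1pr1 was in the order of the T cell markers, and Klf2 was not. The part of T and NK cell transcripts in the levels of Klf2 and S1pr1 was not tested, nor was that of KLF2 in S1pr1. Endothelial cells also express Klf2. Of their 5 markers, Cdh5, Kdr and Tek had at most 3 counts in every spleen sample, while Pecam1, which leukocytes share, was at 45.8 to 75.6 CPM and Vwf at 27.9 CPM in KO spleen sample 1 and at most 0.834 CPM in the other spleen samples. The 5 markers summed to 46.6 to 81.3 CPM in spleen and 49.7 to 168 CPM in BM, and their part in the level of Klf2 was not tested.

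**Figure D4:**
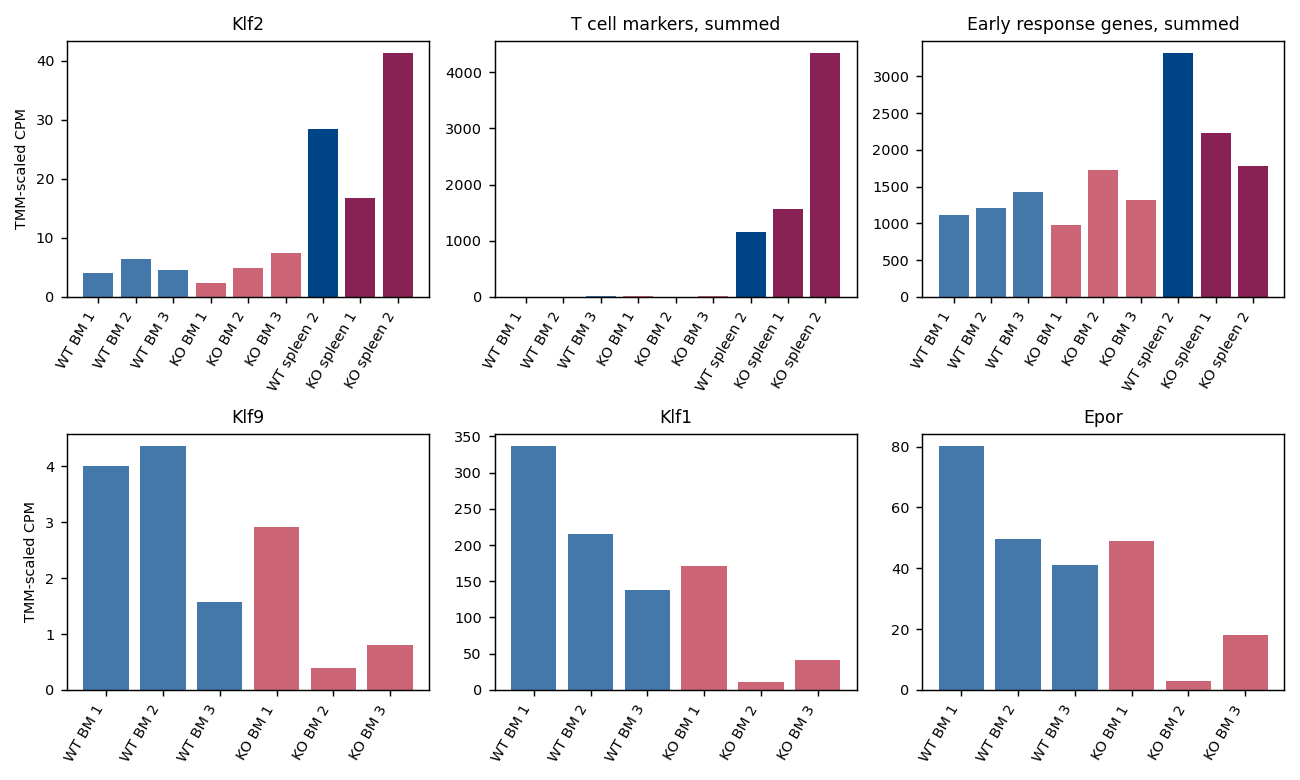
Levels in CPM (vertical axes, TMM-scaled) by sample (horizontal axes). The top row shows Klf2, the sum of 9 T cell markers and the sum of 17 early response genes in all 9 samples, where T cell markers reach 4347 CPM in the KO spleen sample 2, and the bottom row shows Klf9, Klf1 and Epor in the 6 BM samples, where KO samples 2 and 3 are the lowest for each gene.

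The 8 genes listed as known KLF targets gave no common direction between tissues. Of these, 3 were called higher in spleen, where 7.28% of all genes were, and 0 lower, where 12.3% were. The median log2 difference was -0.04. The chemokine gene Ccl5 was higher with a log2 difference of 10.2 (SE 0.71), S1pr1 with 5.84 (SE 1.03) and the homing receptor gene Ccr7 with 4.78 (SE 0.59). Ccl5 had 0 to 1 counts in WT BM and 14 to 50 in KO BM. The size of its fitted difference thus rests partly on counts under the floor of 3. T cells and NK cells also transcribe Ccl5. It was at 375, 618 and 1509 CPM in the WT and the KO spleen samples 1 and 2, in the order of their T cell markers. Ccr7 was in the same order, at 83.1, 117 and 316 CPM. The part of T and NK cell transcripts in these levels was not tested. Itgb7, which encodes an integrin subunit for homing to the gut, had a log2 difference of -0.86 (SE 0.31, adjusted p = 0.0850 by edgeR). Proliferation markers, which KLF2 and KLF4 are known to oppose, were all lower in spleen. Of these, 8 of 8 passed, where 12.3% of all genes were called lower, with a median of -5.06. Among them were Top2a at -4.33 (SE 0.39) and Pcna at -1.30 (SE 0.22). The part of KLF2, and of the other cell types in the spleen samples, was not tested. Klf4 itself did not pass.

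The upstream pathways of Klf2 gave no called gene in the main fit. ERK5 signals through MEF2 factors to induce Klf2 and Klf4, and FOXO1 induces Klf2 in lymphocytes. Of the 11 genes listed for these routes, 11 were tested and 0 were called (edgeR), with a median log2 difference of -0.00016. Across the 17 alternatives 0 to 3 were called lower, with 0 in 12 of them. Mapk7, which encodes ERK5, had 0.30 (SE 0.39) and Mef2c -0.04 (SE 0.24). Map2k5, of the ERK5 route, had -2.75 (SE 1.46, adjusted p = 0.227 by edgeR). It was at 16.6 to 23.7 CPM in BM and at 0.417, 0 and 10.8 CPM in the WT and the KO spleen samples 1 and 2. For 2 of the 11, Map2k5 and Foxo3, all spleen samples lay below all BM samples, where 17.4% of the genes tested did. Foxo1 had 1.06 (SE 0.54, adjusted p = 0.208 by edgeR) and Foxo3 -1.39 (SE 0.47, adjusted p = 0.0649). The 3 ubiquitin ligase genes known for degradation of KLF proteins had 1 called higher, Smurf1, with a log2 difference of 1.60 (SE 0.41), a call that held in 9 of 17 alternatives and was lost, among others, without the WT spleen sample and in the KO samples alone.

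Klf9 (ENSMUSG00000033863, plus strand of chromosome 19, 23141226 to 23168134) fell below detection in spleen. It had 8 to 84 counts in the 6 BM samples and 0 counts in each of the 3 spleen samples, of either genotype. It thus passed the filter on low counts through its BM samples alone. The call below rests on the group that let it into the test, and is no support beyond these counts. Against the floor of 3 counts in each spleen library, the mean of the BM samples, 2.34 ± 1.67 CPM (SD, n = 6), was at least 14.8-fold higher (adjusted p = 0.00985 by edgeR). The lowest BM sample, at 0.39 CPM, was at least 2.18-fold above the highest floor. The call held when any sample was left out (adjusted p 0.0134 to 0.0252), whereas it was lost in the KO samples alone (adjusted p = 0.0735), and the gene could not be tested with a minimum of 10 counts in every sample. Klf1 and Epor were lower in spleen too: Klf1 had 0 to 5 counts and Epor 0 to 32 in the spleen samples, while the hemoglobin genes were higher there, so erythroid genes did not move as 1 group. Myeloid precursor genes also set the tissues apart, as Mpo and Elane summed with 3 other neutrophil markers reached 797 to 2473 CPM in BM and at most 0.805 CPM in spleen. Whether Klf9 in BM came from pre-cDCs or from other precursors was not tested.

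Klf6 and Klf10 were higher in spleen on average without a call. Klf6 was at 129, 129 and 129 CPM in WT BM and 100, 174 and 153 CPM in KO BM, against 182 CPM in the WT spleen sample and 186 and 217 CPM in the KO spleen samples. The spleen samples did not overlap with BM, but the difference was small, at 0.50 (SE 0.19, 95% interval 0.07 to 0.93, adjusted p = 0.101 by edgeR). DESeq2 called it, with an adjusted p of 0.0321. Macrophages express Klf6 at high levels, and of the 7 monocyte and macrophage markers 3, Adgre1, C1qa and Vcam1, were called higher in spleen, with a summed level of 1661 to 2586 CPM in BM and 2075 to 3424 CPM in spleen, whose part in the result was not tested. Klf10 was at 32.5 to 127 CPM in BM and at 204, 123 and 127 CPM in the WT spleen sample and the KO spleen samples, with a log2 difference of 0.81 (SE 0.37, adjusted p = 0.159 by edgeR). Its ranges overlapped, and without the WT spleen sample the difference was 0.31.

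Klf2, Klf4, Klf6 and Klf10 belong to the immediate early response in many cells. Of 17 other listed genes of this response 15 were tested, 8 were called higher in spleen, where 7.28% of all genes were, and 1, Hspa1a, lower, where 12.3% were, with a median log2 difference of 1.02. Hspa1a had 0 counts in every spleen sample and 0 to 119 in the BM samples. It passed the filter on low counts through its BM samples alone, so its call is no support beyond these counts. Across the 17 alternatives 4 to 9 of the listed genes were called higher, and the count called lower held in 5. The summed level was 982 to 1730 CPM in BM and 3319, 2236 and 1785 CPM in the WT and the KO spleen samples. Junb rose by 1.79 on the log2 scale (SE 0.22), Nfkbia by 1.51 (SE 0.19), Nr4a1 by 4.08 (SE 0.64) and Btg2 by 1.196 (SE 0.22), whereas Fos had a log2 difference of -0.59 (SE 0.30) and was at 235 to 522 CPM in BM and 155 to 269 CPM in spleen. Enzyme digestion at 37 °C was used for spleen alone, so early response to the digestion and to the tissue cannot be told apart for these genes or for the KLF genes.

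The TGF-beta pathway, which induces Klf10 and Klf11, had 2 of 8 genes called higher in spleen and 0 lower, with a median of -0.03, and 0 to 2 called higher across the alternatives. Skil, a feedback repressor of SMADs, had a log2 difference of 1.44 (SE 0.33), and Tgfbr2, a receptor subunit, had 2.45 (SE 0.61). Klf11 was at 30.5 CPM in the WT spleen sample and at 11.7 and 45.3 CPM in the KO spleen samples, on both sides of the BM range of 10.4 to 28.6 CPM. Its log2 difference of 0.37 (SE 0.47) became -0.10 without the KO spleen sample 2. Klf13 was at 285 CPM in the WT spleen sample and at 193 and 479 CPM in the KO spleen samples, with a log2 difference of 0.26 (SE 0.30) that became -0.19 without the same sample. Klf4 had -0.15 (SE 0.27, 95% interval -0.76 to 0.47), with 120 CPM in the WT spleen sample and 95.6 and 57.9 CPM in the KO spleen samples. That sample, the richest in T cell markers, thus had the highest Klf2, Klf6, Klf11 and Klf13 and the lowest Klf4 of the 3 spleen samples.

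No cofactor of the family passed the test between tissues in the main fit. Across the 17 alternatives 0 to 2 were called lower, with 0 in 12 of them. The 10 genes for corepressors and coactivators, among them Ctbp1, Ctbp2, Sin3a, Hdac1 and Ep300, were all tested and 0 were called by edgeR, with a median of -0.26. Kat2b, an acetyltransferase gene, had a log2 difference of -1.65 (SE 0.65, unadjusted p = 0.0318, adjusted p = 0.109 by edgeR). Hdac1 had -0.64 (SE 0.21, unadjusted p = 0.0142, adjusted p = 0.0632 by edgeR). For both, all spleen samples lay below all BM samples, where 17.4% of the genes tested did. Among the 11 other KLF and SP genes, 7 were tested, 1 was called higher and 1 lower. Sp4 was higher in spleen, with a log2 difference of 2.10 (SE 0.46), and Klf1 was lower, with a fitted difference that is not given because its spleen samples had 0, 5 and 2 counts. Klf14, Klf15 and Klf17 had 0 counts in all 9 samples, and Klf5 had at most 21. In BM, none of these lists held a gene called between genotypes other than Clec9a itself. Ccl5, a listed target, was not called, but its genotypes did not overlap, with counts of 14 to 50 in KO and 0 to 1 in WT. Its log2 difference was 5.31 (95% interval 2.83 to 7.80, unadjusted p = 0.000791, adjusted p = 0.861 by edgeR). The size of this difference rests on WT counts under the floor of 3. The paper reports higher Ccl5 in KO pre-cDCs of the BM.

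Klf7 (ENSMUSG00000025959, minus strand of chromosome 1, 64029447 to 64122282), known for its role in neurons, depended most on a single sample. It had 169, 135 and 157 counts in WT BM and 176, 123 and 94 in KO BM. The WT spleen sample had 0 counts, whereas KO spleen had 519 and 586. In CPM the KO spleen samples were at 29.1 and 24.8, above all 6 BM samples at 4.71 to 10.1, and the WT spleen sample was below them. Over all samples the log2 difference between tissues was 0.96 (SE 1.56, adjusted p = 0.737 by edgeR). Without the WT spleen sample it was 2.12 with an adjusted p of 0.0146, which passed. In the KO samples alone it was 2.12 with an adjusted p of 0.0506, which did not.

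The third comparison, between genotypes in spleen, has 1 WT sample and so no test and no replicate check. Each KO spleen sample was set beside the WT spleen sample. Klf7 was the only member at least 2-fold higher in both, at least 139-fold against the floor of 3 counts, where 15.1% of the 13468 genes were at least 2-fold higher in both. Other genes related to the family were at 0 in the same WT library while both KO spleen samples had at least 100 counts, namely Smad3, of the TGF-beta pathway, and Map3k2, of the ERK5 route. Whether the 0 counts of Klf7 belong to the genotype or to this library cannot be told apart.

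Klf3 was 5.29-fold and 1.62-fold the WT level in the KO spleen samples 1 and 2, at 97.0 and 29.7 CPM against 18.3 CPM. The KO samples differed from each other by 1.70 on the log2 scale, more than sample 2 differed from WT. Klf10 was 0.60 and 0.62 times the WT level, and Klf4 was 0.79 and 0.48 times. Klf6 was within 1.195-fold of the WT level in both. Klf2, Klf11 and Klf13 lay below the WT level in KO sample 1 and above it in sample 2, with gaps between the KO samples of 1.29, 1.94 and 1.31 on the log2 scale. As the WT sample lay between them for these 3 genes, the gap between the KO samples necessarily exceeded that of either from WT. Klf9 and Klf12 were at 0 in all 3 spleen samples.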

How the data were processed

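Pre-cDCs from BM and spleen of mixed chimeras were profiled by total RNA-seq after removal of ribosomal RNA, and the labels gave the genotype and tissue of each sample. The authors deposited expected counts per gene, not normalized, of which 25.6% of nonzero values were not whole. The submitters' processing notes name Trimmomatic 0.36, STAR 2.5.2, RSEM 1.3.0, DESeq2 1.18.1, R 3.4.3 and GRCm38, with no roles, and the annotation release is not given in the sources used here. A table of values after a variance stabilizing transformation was not used here. Expected counts share out reads that fit several genes, and the strand setting of the counting is not given, so overlapping and antisense genes cannot be told apart.

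The counts were rounded and tested with edgeR 4.0.16 in R 4.3.3 (TMM scaling, filterByExpr, quasi-likelihood test, Benjamini-Hochberg adjustment over all genes tested, threshold 0.05), BM genotypes over 6 samples and tissues over 9 samples with genotype as a covariate. Standard errors came from the F statistics, and intervals (95%) from these and the degrees of freedom of the test. TPM used the summed exon lengths of GENCODE M21, which gave symbols for 51719 of the 51912 identifiers. Folds against samples with at most 3 counts are lower bounds. Depth was 17103806 to 23722298 counts per sample, which makes 3 counts 0.126 to 0.175 CPM. Whether replicate samples came from separate experiments is not stated, so p-values measure the spread between these samples. No replicates agreed closely enough to be 1 library deposited again.

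In simulated data, changes of 2 on the log2 scale were recovered for 66.0% of genes in the BM comparison and 33.3% in the tissue comparison. Changes of 1 on this scale were recovered for only 8.16% and 2.08%, so most 2-fold changes would be missed. The alternatives were DESeq2 1.42.0, limma 3.58.1 with voom, other scaling and filters, the replicate block, an added score of the chromosome 1 interval, other sets of samples, and each sample left out; the overlap of CPM by total counts was added after seeing the data. The members and gene lists were chosen with earlier results of these data known. The genes named are all members and, from each list, called genes with the lowest adjusted p, up to 4 in each direction. Foxo1, Foxo3, Mapk7, Map2k5, Mef2c, Itgb7, Pcna, Fos, Epor, Csf1r, Itgax, Spn, Kat2b and Hdac1 were named after their values were seen. So were Ms4a1, Cd79b, Ncr1, Klrb1c, Pecam1, Vwf, genes at 0 and the BM values of Ccl5. Single values of some listed genes are not reported here.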

Additional observations from a re-analysis of the deposited data

Results flagged for a closer look

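In the 6 BM samples, WT BM sample 1 stood apart from the others for 2 members. For Klf10 (32.5 CPM, the others 78.5 to 127 CPM) the gap to the nearest sample was 0.648 of the whole range on the log2 scale, and for Klf11 (10.4 CPM, the others 19.8 to 28.6 CPM) it was 0.638, both above Dixon's critical value of 0.625 for 6 samples. Chance gives such a gap in about 1 in 20 groups, and 10 genes were examined.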

How the results depend on the processing

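In BM, 0 members were called under every alternative, of 125 member values 121 kept their direction, and the others changed sign close to 0 when a sample was left out: Klf2 ranged from -0.45 to 0.30 (positive without WT BM sample 2 or KO BM sample 1), Klf4 from -0.013 to 0.34 and Klf6 from -0.0068 to 0.34 (both negative without KO BM sample 2). All genes called in BM numbered 4, compared with 11 by DESeq2, 10 with no filter, and 2 to 15 when a sample was left out. Between tissues 143 of 151 member values kept direction and call. Members called higher numbered 2 by DESeq2 (Klf6 added), 0 in the KO samples only, and 1 to 2 when a sample was left out, the 2 being without the WT spleen sample (Klf7 added). Members called lower numbered 0 with at least 10 counts in every sample, which removes Klf9 from the test, and 0 in the KO samples only, a fit with fewer samples. All genes called between tissues numbered 2631, and 1336 in the KO samples only. When a sample was left out, Klf3 ranged from -0.15 (without KO spleen sample 1) to 1.49, Klf4 from -0.48 to 0.088, Klf11 from -0.10 to 0.76 and Klf13 from -0.19 to 0.51, the last 3 changing sign without KO spleen sample 2; the cause was not tested. Members with spleen samples above all BM samples numbered 1 with CPM by total counts. In spleen, members at least 2-fold higher in KO numbered 1 to 2 when a KO sample was left out (Klf3 added without sample 2). With CPM in place of TPM, 10 of 20 ranks moved, as Klf3 ranked 5 in BM and Klf2 ranked 8. Of 992 counts of listed genes, 912 stayed within 1.5 times; the count of ubiquitin ligases called higher held in 9 of 17 alternatives and that of early response genes called lower in 5.

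The same-numbered WT and KO BM samples deviated together with correlations of 0.10, 0.10 and -0.08, so the numbers were not taken to pair samples. With the replicate block, all genes called between tissues numbered 1246, Klf2 (adjusted p = 0.0437 by edgeR) and Klf9 (0.0484) were still called, and 4 genes were called in BM. Depth limits Klf12 and Klf9 in BM most, where 3 counts are 0.143 to 0.172 CPM.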
